A study of Mus musculus with 8 samples.

Results

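Collagen genes of the mouse were examined in telencephalon of animals mutant for Dlx1/2. All genes whose symbol has the form Col, a type number, the letter a and a chain number were taken, which gave 42 of the 18193 genes that have a probe set naming them alone. They are covered by 82 probe sets, and 27 of the genes have more than 1. A probe set is a group of short oligonucleotides on the array that together give 1 signal. Each gene was represented by its probe set of highest mean, and 32 of the 42 genes passed a filter on dim probe sets and were tested, of 13627 genes tested in all. The 8 arrays form 4 groups of 2: basal ganglia (BG) with genotype +/-, BG -/-, cortex (Ctx) +/- and Ctx -/-. Dlx1 and Dlx2 are homeobox transcription factors of the ventral forebrain, and the controls are +/- animals, so every group carries the mutation on at least 1 copy. The labels name no age, strain or form of the alleles, and nothing ties the 2 arrays of a group to different animals. The p-values therefore describe array-to-array spread, part or all of which may be technical.

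Collagens are the main structural proteins of the extracellular matrix, built of alpha chains wound around each other. Fibril-forming collagens (types I, II, III, V and XI among them) make up banded fibrils, fibril-associated collagens sit on those fibrils, collagen IV forms the sheet of basement membranes, and collagen VI forms beaded microfibrils. Multiplexins lie in vascular and epithelial basement membranes, and transmembrane collagens are anchored in the plasma membrane. In brain, collagen fibrils are mostly those of the meninges and of the sheaths of larger vessels, and collagen IV lines capillaries and the pial surface, so in whole tissue these genes read connective tissue as well as neural cells. In bulk RNA, fewer cells of a type and less RNA per cell cannot be told apart.

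Across probe sets, Pearson correlations on the log2 scale were 0.973 to 0.982 within groups and 0.930 to 0.977 between them. Dlx1 was at 1232 and 1237 signal units in BG +/- and at 138 and 137 (Ctx +/-), against 3.67 and 15.5 (BG -/-) and 2.42 and 1.74 (Ctx -/-). All 7 cortical marker genes were higher in Ctx in both genotypes (limma with Benjamini-Hochberg). Of 7 basal ganglia markers 6 were higher in BG within +/-, while within -/- 5 were higher and 1, Foxp1, was lower, with 261 and 285 (BG -/-) against 537 and 479 (Ctx -/-). Labels also name blood and adrenal medulla: of 4 adrenal medulla genes tested, Th and Pnmt were higher in BG averaged over genotypes and none differed with genotype (limma with Benjamini-Hochberg). Of all genes tested, 22.6% were higher in BG. With each array centred on its median 1 of the 4 was higher in BG, and with quantile normalization none was. The 4 sex-linked genes measured separated the +/- from the -/- arrays in both regions, so genotype and sex cannot be told apart. Of other tissues, the 9 choroid plexus markers summed to 12204 and 14029 (Ctx +/-) and to 75.1 to 314 in the other groups, with Ttr at 11634 and 13605 (Ctx +/-) and at 34.3 or below elsewhere. The 10 microglia markers summed to 1033 to 1184 in BG and to 521 to 738 in Ctx. Averaged over genotypes 5 of them were higher in BG and none lower, against 22.6% and 15.1% of all genes. With median centring 3 were higher, against 12.8% of all genes, and with quantile normalization 5, against 19.7%. The 6 red blood cell markers summed to 6061 and 6365 (BG +/-), 3161 and 3328 (BG -/-), 2056 and 2291 (Ctx +/-), and 1458 and 1672 (Ctx -/-). Most of these sums was Hbb-y, at 5476 and 5819 (BG +/-) and 2793 and 2908 (BG -/-). Of the 5 tested, 1 was called lower in BG -/- and none in Ctx -/-, against 3.05% and 0.183% of all genes. Averaged over genotypes 4 were higher in BG and none lower, against 22.6% and 15.1%.

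**Figure D1:**
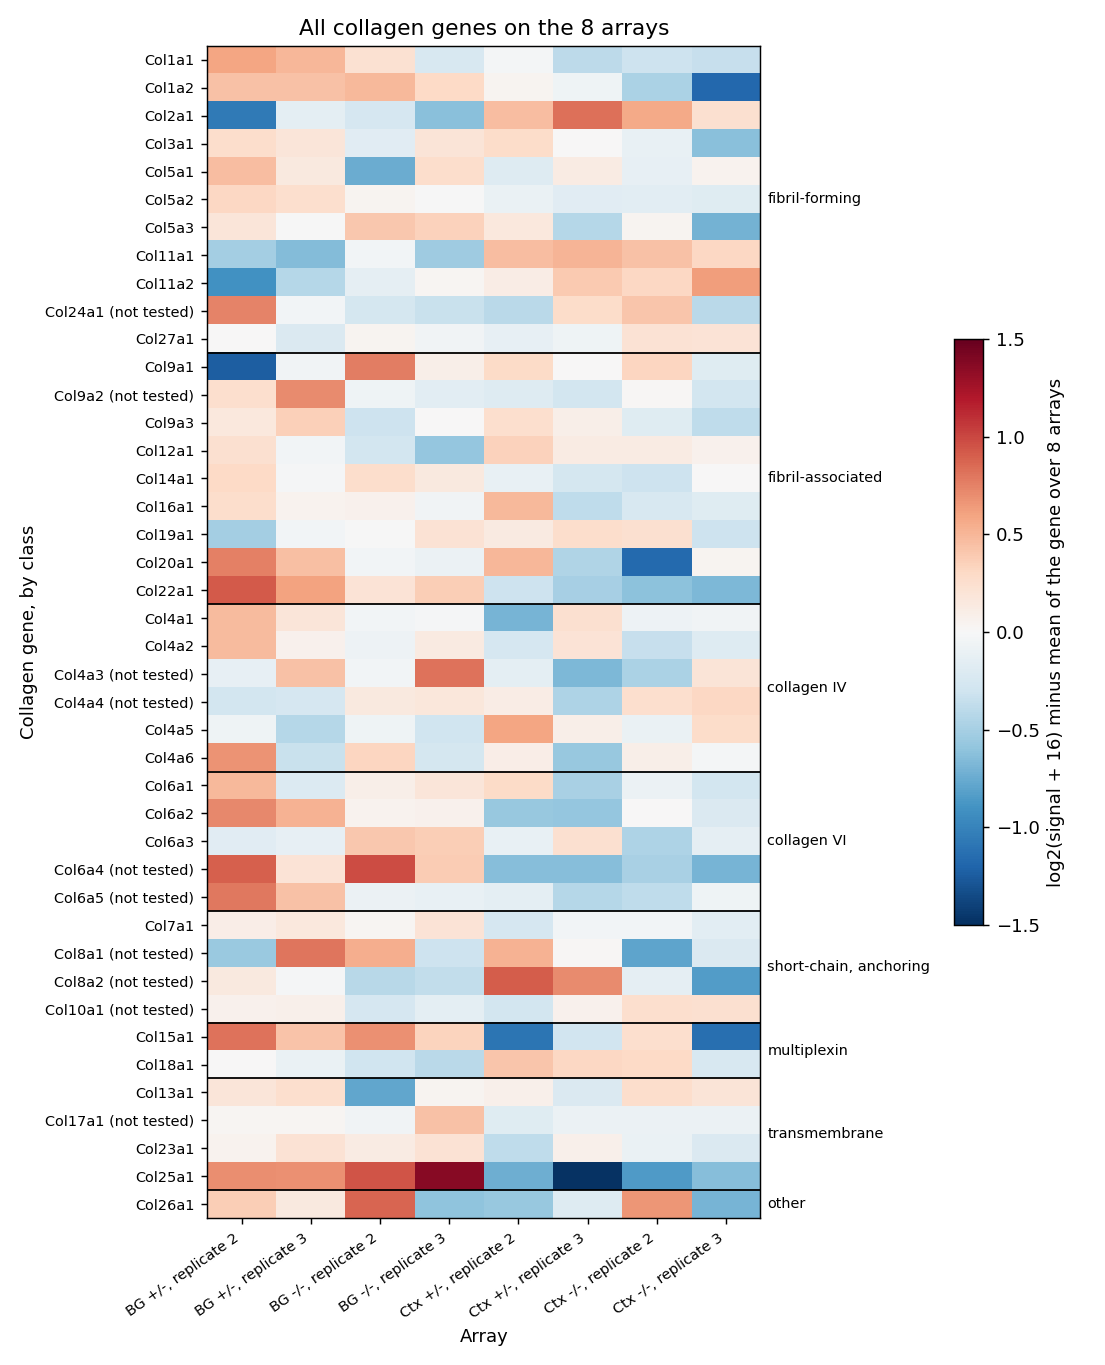
All 42 collagen genes (rows, by class) on the 8 arrays (columns), as log2(signal + 16) minus the mean of the gene over the 8 arrays, with the colour scale ending at 1.5 in either direction. Col25a1 is red in all 4 BG arrays and blue in all 4 Ctx arrays, while Col11a1 and Col2a1 show the opposite pattern.

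More collagen genes passed the threshold between regions than between genotypes. Averaged over both genotypes, 7 of 32 collagen genes were higher in BG and 3 were higher in Ctx (limma with Benjamini-Hochberg, threshold 0.05). Of all genes tested, 22.6% were higher in BG and 15.1% higher in Ctx, so collagen genes did not differ between regions more often than other genes. Their median log2 difference was 0.24, against 0.09 over all genes. Higher in BG were the transmembrane collagen gene Col25a1, the fibril-associated Col22a1, the type I chains Col1a1 and Col1a2, the type V chain Col5a2, the type VI chain Col6a2 and the multiplexin Col15a1. Higher in Ctx were Col2a1, Col11a1 and Col11a2, the chains of types II and XI that share the fibrils of cartilage.

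**Figure D2:**
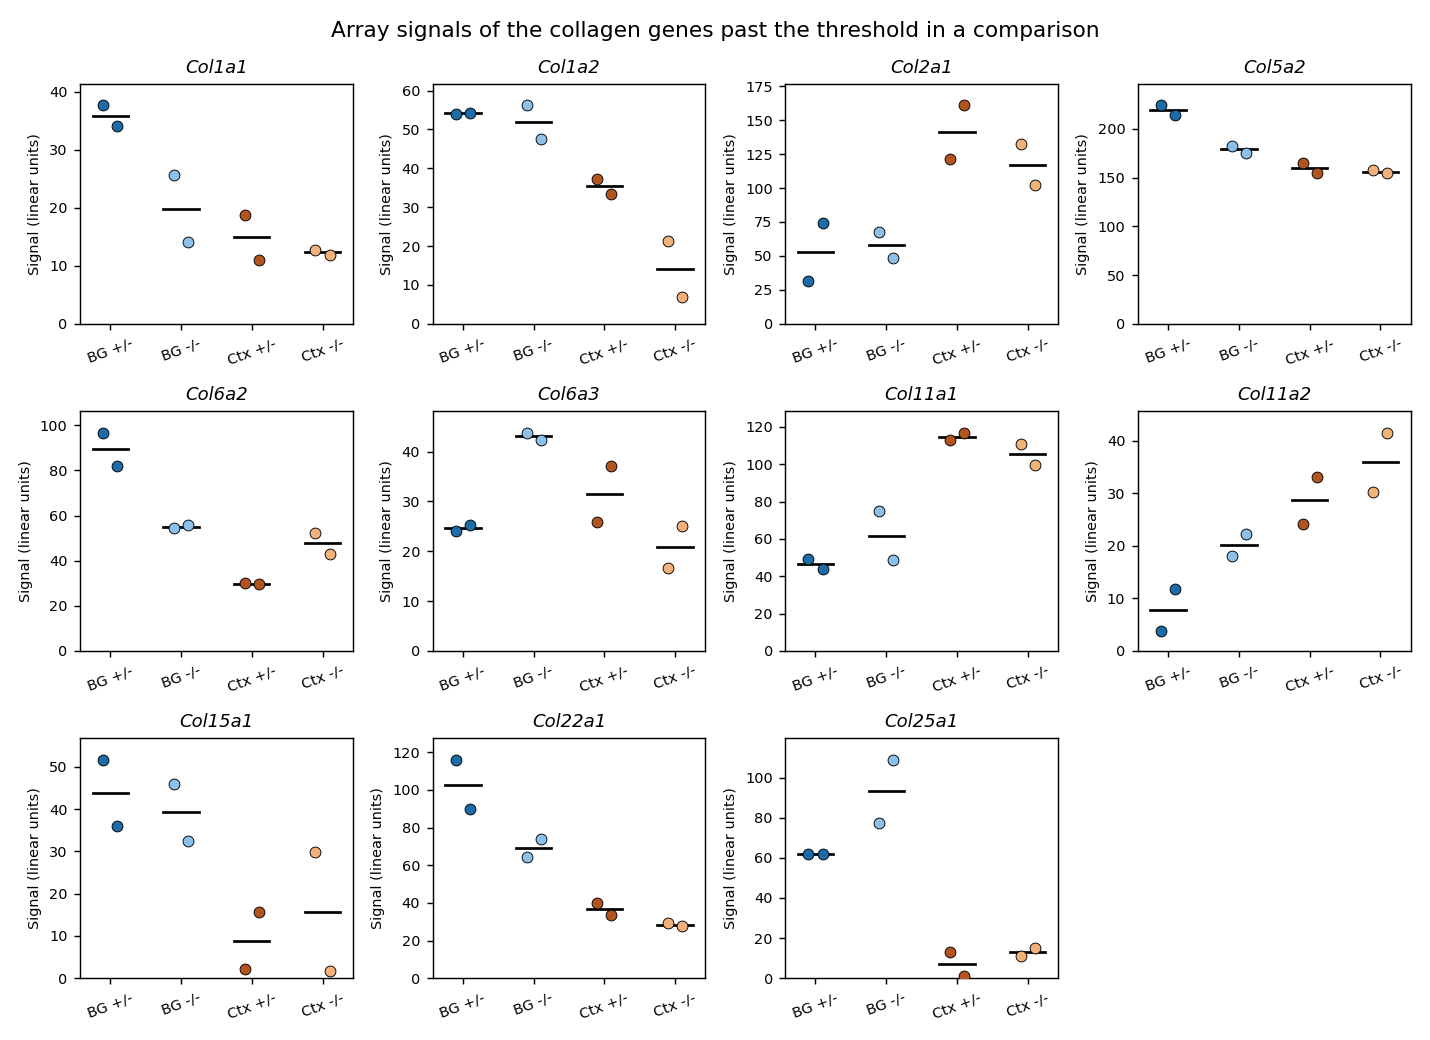
Signals (linear units, axes from 0) of the 11 collagen genes past the threshold in at least 1 comparison, 2 arrays a group, with the group mean as a bar. Col25a1 and Col22a1 are higher in every BG array than in every Ctx array, and Col2a1, Col11a1 and Col11a2 are lower in every BG array.

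Col25a1 encodes a neuronal transmembrane collagen that is also found in amyloid plaques. Its signal was 62.1 and 61.9 (BG +/-), 77.3 and 109 (BG -/-), 13.2 and 1.30 (Ctx +/-), and 10.9 and 15.0 (Ctx -/-). All BG arrays lay above all Ctx arrays, and in Ctx the gene was dim. On the log2(signal + 16) scale, which understates differences of dim genes, BG exceeded Ctx by 1.85 ± 0.19 (SE; 3.60-fold; limma adjusted p = 0.000794, higher in 4 of 4 BG arrays). The difference was 1.80 ± 0.26 within +/- and 1.90 ± 0.26 within -/-, with limma adjusted p = 0.00526 and 0.00554. Its other probe set gave 0.39 ± 0.29 and did not pass, with 47.3 and 25.4 (BG +/-) against 49.0 and 10.9 (Ctx +/-), so the call rests on 1 probe set.

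Col22a1 encodes a fibril-associated collagen known from tissue junctions such as that of muscle and tendon. Its signal was 116 and 89.7 (BG +/-), 64.6 and 74.1 (BG -/-), 40.2 and 33.3 (Ctx +/-), and 29.3 and 27.6 (Ctx -/-). The regions did not overlap in either genotype. BG exceeded Ctx by 1.05 ± 0.11 on average (limma adjusted p = 0.000888), by 1.17 ± 0.15 within +/- and by 0.94 ± 0.15 within -/-. Both other probe sets of the gene passed in the same direction, at 1.54 ± 0.18 and 1.61 ± 0.11. None of the 7 other fibril-associated collagen genes tested passed between regions on the probe set that represents it.

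The fibril-forming class split in both directions. Of its 11 genes 10 were tested, and averaged over genotypes 3 were higher in BG, 3 higher in Ctx and 4 did not pass, with a median of 0.15. Among those higher in Ctx, Col11a1 was at 113 and 117 (Ctx +/-), 111 and 99.8 (Ctx -/-), 49.3 and 43.7 (BG +/-), and 74.9 and 48.7 (BG -/-). Every BG array was below every Ctx array, and the log2 difference was -0.86 ± 0.13 (limma adjusted p = 0.00331). The other probe set of Col11a1 passed as well, at -0.86 ± 0.16.

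Col2a1 was at 121 and 161 (Ctx +/-), 132 and 102 (Ctx -/-), 31.8 and 74.6 (BG +/-), and 67.9 and 48.8 (BG -/-). The regions did not overlap, with a difference of -1.04 ± 0.23 (limma adjusted p = 0.0137). Col11a2 was at 24.2 and 33.1 (Ctx +/-), 30.2 and 41.5 (Ctx -/-), 3.86 and 11.9 (BG +/-), and 18.1 and 22.3 (BG -/-), with a difference of -0.72 ± 0.15 (limma adjusted p = 0.0120). Both genes have a single probe set, so no second measurement of them was at hand. Within +/- alone all 3 genes passed, at -1.24 ± 0.32 for Col2a1, -1.07 ± 0.18 for Col11a1 and -0.92 ± 0.21 for Col11a2. Within -/- only Col11a1 did, at -0.66 ± 0.18 (limma adjusted p = 0.0489), while Col2a1 at -0.84 ± 0.32 and Col11a2 at -0.51 ± 0.21 did not (limma adjusted p = 0.115 and 0.139). Whether the region difference itself changed with genotype was tested for all 3 and passed for none, with log2 differences of 0.40 to 0.41. The call of Col11a1 in -/- was lost without any 1 array other than BG -/- replicate 2, with values of -0.72 to -0.41. In +/-, the call of Col2a1 was lost without any 1 array other than BG +/- replicate 3 (-1.43 to -0.78), and that of Col11a2 without BG +/- replicate 2 (-0.67) or Ctx +/- replicate 3 (-0.77).

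Markers of cartilage and bone were measured beside these 3 genes. Of 10 such markers with a probe set 6 were tested, and averaged over genotypes 4 were higher in BG (Alpl at 0.80 ± 0.11, Ibsp, Sp7 and Snorc) and none higher in Ctx, against 22.6% and 15.1% of all genes. With median centring the counts were 3 and 1, against 12.8% and 26% of all genes, and with quantile normalization 2 and 1, against 19.7% and 14.9%. Cnmd, a gene of cartilage, was at 15.6 to 25.3 in BG and 23.7 to 39.5 in Ctx, a difference of -0.36 ± 0.11 in the direction of Col2a1 (limma adjusted p = 0.0504). The 10 markers summed to 284 and 322 (BG +/-), 313 and 338 (BG -/-), 164 and 219 (Ctx +/-), and 130 and 152 (Ctx -/-). The cartilage proteoglycan gene Acan was at 9.48 to 47.8 in BG and at 17.0 to 25.2 in Ctx. The sum was higher in every BG array than in every Ctx array, and the part of these markers in the collagen differences was not tested.

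Type I collagen ran the other way. Col1a2, the second chain of the type I fibril, was at 53.9 and 54.3 (BG +/-), 56.2 and 47.6 (BG -/-), 37.3 and 33.5 (Ctx +/-), and 21.3 and 6.85 (Ctx -/-). All BG arrays lay above all Ctx arrays, by 0.83 ± 0.16 (limma adjusted p = 0.00912). Within -/- the difference was 1.21 ± 0.23 (limma adjusted p = 0.0155) and within +/- it was 0.45 ± 0.23 (limma adjusted p = 0.194). The 2 other probe sets of Col1a2, at 1.09 to 11.6 and at 0.121 to 15.3, were too dim to be tested. No other probe set therefore bears on its calls. The call in -/- was lost without BG -/- replicate 2 (1.12, adjusted p = 0.0875) or without BG -/- replicate 3 (1.31, adjusted p = 0.0610).

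Col1a1, the main chain of type I, was at 37.6 and 34.1 (BG +/-), 25.6 and 14.0 (BG -/-), 18.8 and 11.1 (Ctx +/-), and 12.7 and 11.9 (Ctx -/-). The BG +/- arrays were above all others and BG -/- overlapped Ctx +/-. The averaged difference was 0.54 ± 0.14 (limma adjusted p = 0.0249), and that within +/- was 0.75 ± 0.20 (limma adjusted p = 0.0349). Median centring (0.34, adjusted p = 0.0743), quantile normalization (0.30, adjusted p = 0.0871) and an intensity trend (adjusted p = 0.0777) ended the averaged call. The averaged call was lost without any 1 array other than BG -/- replicate 3 and Ctx +/- replicate 2 (0.42 to 0.56), and the call in +/- without either BG +/- array, Ctx +/- replicate 3 or either Ctx -/- array (0.57 to 0.80). The other probe set of Col1a1, at 7.01 to 39.6 in BG and 1.21 to 6.21 in Ctx, was too dim to be tested.

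Col5a2, a type V chain that joins type I fibrils, was at 224 and 214 (BG +/-), 182 and 176 (BG -/-), 165 and 155 (Ctx +/-), and 157 and 154 (Ctx -/-). The regions did not overlap, but the difference was small, 0.30 ± 0.08 on average and 0.42 ± 0.11 within +/- (limma adjusted p = 0.0269 and 0.0381). Median centring of the arrays brought the averaged difference to 0.098, which did not pass. It also did not pass without the filter (adjusted p = 0.0510) or with the mean of the probe sets of the gene (adjusted p = 0.0675), and the second probe set, at 0.30 ± 0.21, was not called. The call in +/- was lost with median centring (0.30), the mean of probe sets (0.28), no filter, only the groups compared and the replicate block (adjusted p = 0.0567 to 0.224), and on leaving out any 1 of the 8 arrays (0.38 to 0.46), and the averaged one without any array other than Ctx +/- replicate 2 (0.28 to 0.32). Col3a1, whose chain forms the reticular fibrils of vessels and meninges, was at 53.4 and 49.2 (BG +/-), 35.4 and 49.7 (BG -/-), 53.8 and 41.7 (Ctx +/-), and 37.4 and 21.4 (Ctx -/-). Its groups overlapped, and the averaged region difference was 0.23 ± 0.15 with a 95% interval of -0.13 to 0.59.

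Col6a2 passed between the regions within +/- and on average, and between the genotypes in BG only. The sequences before the annotated start are shown for this gene, for Col1a2, which differed between the regions, and for Col3a1, which did not pass. They are the 250 bases upstream of the start in RefSeq (build GRCm38.p6), 5′ to 3′ on the strand of the gene. For Col1a2 they lie at chr6:4505368-4505617 (plus strand), for Col3a1 at chr1:45311288-45311537 (plus strand) and for Col6a2 at chr10:76623631-76623880 (minus strand). Capitals mark the matches to any of the motifs searched.
Col1a2: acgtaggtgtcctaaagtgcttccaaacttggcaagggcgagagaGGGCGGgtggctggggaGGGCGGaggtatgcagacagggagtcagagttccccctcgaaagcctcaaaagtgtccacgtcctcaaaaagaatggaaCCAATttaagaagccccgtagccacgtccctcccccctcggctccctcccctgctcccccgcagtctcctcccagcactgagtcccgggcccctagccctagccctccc
Col3a1: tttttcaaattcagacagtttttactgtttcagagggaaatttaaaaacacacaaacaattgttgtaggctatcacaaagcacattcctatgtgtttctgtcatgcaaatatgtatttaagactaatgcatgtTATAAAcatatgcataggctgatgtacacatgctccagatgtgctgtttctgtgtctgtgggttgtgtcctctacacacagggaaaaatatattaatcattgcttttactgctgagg
Col6a2: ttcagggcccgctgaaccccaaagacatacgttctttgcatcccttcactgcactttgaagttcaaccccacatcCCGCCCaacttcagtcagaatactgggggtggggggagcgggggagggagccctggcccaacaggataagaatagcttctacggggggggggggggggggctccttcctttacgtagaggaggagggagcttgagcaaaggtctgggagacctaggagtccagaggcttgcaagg

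The motifs, searched on both strands, were the GC box GGGCGG, the CCAAT box CCAAT, the TATA box TATAAA and TAATTA, the core that many homeodomain proteins bind. None of these motifs contains another. Col1a2 held 2 GC boxes and 1 CCAAT box, Col3a1 held 1 TATA box, and Col6a2 held 1 GC box on the opposite strand. The RefSeq table matched 33 of the 42 collagen genes, with 36 windows, and not Col1a1, Col2a1, Col4a3, Col5a2, Col9a3, Col12a1, Col14a1, Col22a1 and Col26a1. GGGCGG was in 21 of them (58.3%), against 32.7% of the 32851 windows of the table. CCAAT was in 13 (36.1%, against 33.8%), TATAAA in 5 (13.9%, against 12.4%) and TAATTA in 2, those of Col10a1 and Col11a2 (5.56%, against 4.84%). A match is a description of the letters only.

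**Figure D3:**
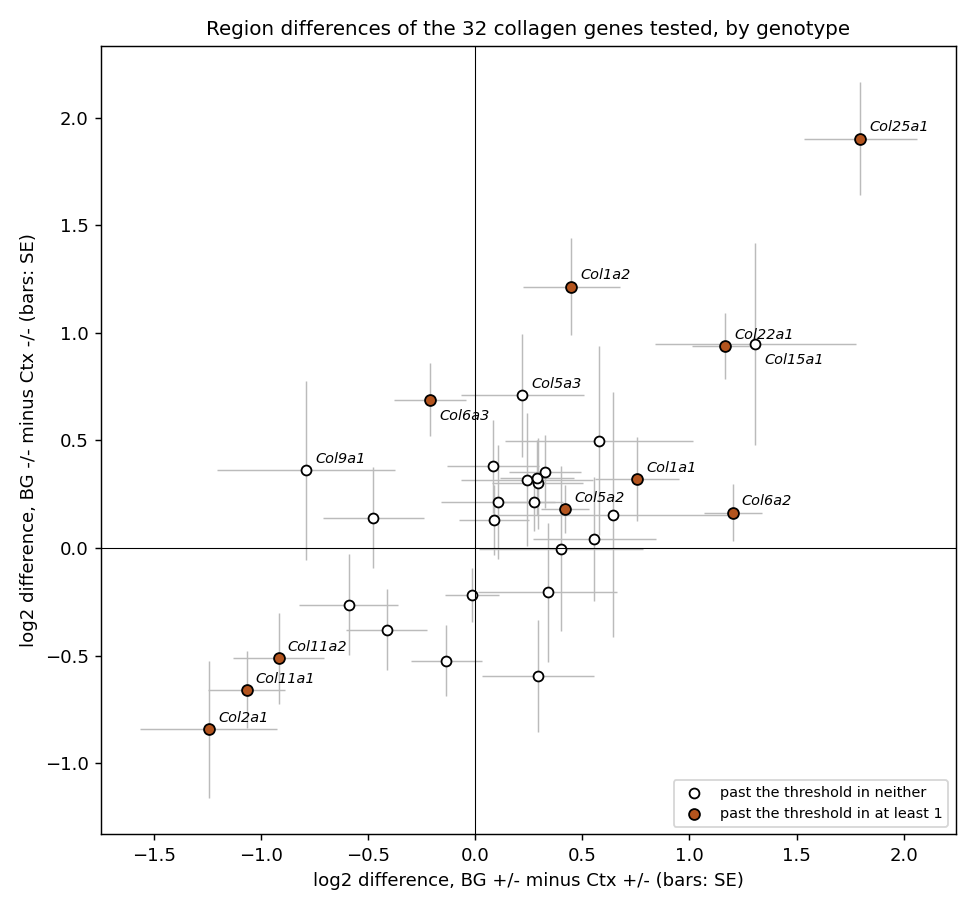
Log2 difference of BG over Ctx for the 32 collagen genes tested, in +/- arrays (horizontal axis) and in -/- arrays (vertical axis), with SE bars. Col25a1 lies farthest up and to the right at 1.80 and 1.90, and Col2a1, Col11a1 and Col11a2 lie at the lower left.

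The region comparison was made in each genotype on separate arrays. In +/-, 5 of 32 collagen genes were higher in BG and 3 higher in Ctx, against 14% and 10.7% of all genes. In -/-, 4 were higher in BG and 1 higher in Ctx, against 11.4% and 7.25%. The sign was the same in both genotypes for 26 of the 32 genes (81.3%), against 73.5% of all genes tested, and across genes the differences correlated at 0.71 (Pearson, n = 32), against 0.72 over all genes. These genes share the arrays and their scaling and are not independent replicates. Col11a1, Col22a1 and Col25a1 passed in both genotypes. With each array centred on its median, the split in -/- went from 4 higher and 1 lower to 3 higher and 6 lower, and the averaged split from 7 and 3 to 4 and 6. That centring moved the median of all probe sets from 0.08 to -0.21 in -/- and from 0.06 to -0.14 on average, so the balance of directions depends on the scaling. No collagen call changed its sign under it.

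Collagen VI is built from the chains encoded by Col6a1, Col6a2 and Col6a3. Col6a2 was at 96.7 and 82.1 (BG +/-), 54.6 and 55.6 (BG -/-), 29.9 and 29.5 (Ctx +/-), and 52.4 and 42.9 (Ctx -/-). The difference between regions was 1.20 ± 0.13 in +/- (limma adjusted p = 0.00213) and 0.16 ± 0.13 in -/- (limma adjusted p = 0.421), and the test of that contrast did not pass (limma adjusted p = 0.0726). The averaged difference was 0.68 ± 0.09. The other probe set passed in the averaged comparison too, at 1.09 ± 0.27, but did not show the contrast between genotypes. It was at 86.4 and 34.0 (BG +/-), 31.0 and 48.2 (BG -/-), 27.9 and 16.2 (Ctx +/-), and 3.10 and 11.7 (Ctx -/-), with region differences of 0.93 ± 0.38 in +/- and 1.26 ± 0.38 in -/-. The one that represents the gene is of a type whose probes may also bind other transcripts.

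Col6a3 was at 24.1 and 25.3 (BG +/-), 43.8 and 42.3 (BG -/-), 25.8 and 37.2 (Ctx +/-), and 16.7 and 25.1 (Ctx -/-). Its BG -/- arrays were above all others, and within -/- BG exceeded Ctx by 0.69 ± 0.17 (limma adjusted p = 0.0369). Median centring (0.41, adjusted p = 0.189) and quantile normalization (0.36, adjusted p = 0.270) ended that call, as did no filter or an intensity trend. It was also lost on leaving out any 1 array other than those of Ctx +/- (0.52 to 0.85). Col6a1 was at 11.5 to 37.9 over the 8 arrays, and no comparison passed.

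Col15a1, a multiplexin of vessel and muscle basement membrane, was at 51.7 and 35.9 (BG +/-), 46.0 and 32.5 (BG -/-), 2.09 and 15.7 (Ctx +/-), and 29.8 and 1.63 (Ctx -/-). All BG arrays were above all Ctx arrays, with wide spread in Ctx. The averaged difference was 1.13 ± 0.33 (limma adjusted p = 0.0384). Median centring (0.93, adjusted p = 0.0599) and quantile normalization (0.91, adjusted p = 0.105) ended this call, as did an offset of 4 or no filter. Leaving out any 1 array other than Ctx +/- replicate 3 and Ctx -/- replicate 2 ended it too (0.78 to 1.22). The other multiplexin, Col18a1, was at 41.4 to 60.2 in BG and at 48.3 to 85.5 in Ctx, a difference of -0.40 ± 0.13 (limma adjusted p = 0.0568). It was called with an offset of 64, the lowest 50% left out, median centring, quantile normalization or the replicate block and without Ctx -/- replicate 3, and within -/- with median centring.

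None of the 4 collagen IV genes tested passed in any comparison with the settings used throughout. Col4a1 was at 398 and 322 (BG +/-), 275 and 279 (BG -/-), 168 and 336 (Ctx +/-), and 266 and 271 (Ctx -/-). Ctx +/- replicate 2 was the lowest array and its partner was among the highest, so the 2 arrays of that group spanned most of the range of the gene. Col4a2, which forms the common collagen IV trimer with Col4a1, was at 198 and 145, 130 and 153, 113 and 162, and 105 and 118 in the same order of groups. The averaged region difference was 0.30 ± 0.20 for Col4a1 and 0.30 ± 0.15 for Col4a2, with 95% intervals of -0.18 to 0.78 and -0.06 to 0.65. Col4a5, on the X chromosome, was at 97.1 and 72.2 (BG +/-), 97.6 and 80.6 (BG -/-), 163 and 111 (Ctx +/-), and 94.3 and 127 (Ctx -/-). Its regions overlapped, with a difference of -0.43 ± 0.16 (limma adjusted p = 0.0849), which was called with an offset of 64, median centring or an intensity trend and without Ctx +/- replicate 3. Within +/- it was called with median centring. Col4a1 was called higher in BG within +/- with the mean of its probe sets, and both within +/- and on average without Ctx +/- replicate 3. Its X-linked neighbour Col4a6 was at 40.8 to 98.2 in BG and 32.4 to 61.0 in Ctx.

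Markers of the cells that lay down meningeal and vascular collagen were measured beside these genes, and their part in the collagen differences was not tested. Of 16 meningeal fibroblast markers 10 were tested, and averaged over genotypes 4 were higher in BG (Pdgfra, which oligodendrocyte precursors also express, Foxc1, Bgn and Ogn) and 2 higher in Ctx (Cxcl12 and Dcn), against 22.6% and 15.1% of all genes. They summed to 1053 and 1139 (BG +/-), 937 and 998 (BG -/-), 951 and 958 (Ctx +/-), and 737 and 879 (Ctx -/-). The meningeal markers Lum and Foxc2 were at 14.1 or below on all arrays. Of 9 mural cell markers 8 were tested and 4 were higher in BG (Pdgfrb at 1.15 ± 0.12, Acta2, Vtn and Notch3), against the same 22.6%. They summed to 988 and 995 (BG +/-), 1196 and 1231 (BG -/-), 774 and 884 (Ctx +/-), and 816 and 825 (Ctx -/-). In BG -/- the pericyte gene Rgs5, which is counted in the mural sums, rose from 234 and 207 to 441 and 453 (0.97 ± 0.12, limma adjusted p = 0.00916). The 7 other mural markers tested were not called between the genotypes in BG, where 4.76% of all genes rose and 3.05% fell. The median difference of the 8 was -0.07. Of 12 endothelial markers 11 were tested and 1, Cldn5, was higher in BG at 0.60 ± 0.15, with sums of 784 to 1004 in BG and 609 to 811 in Ctx. With median centring 3 meningeal, 3 mural and none of the endothelial markers were higher in BG (12.8% of all genes), and 3, 1 and none were higher in Ctx (26%).

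**Figure D4:**
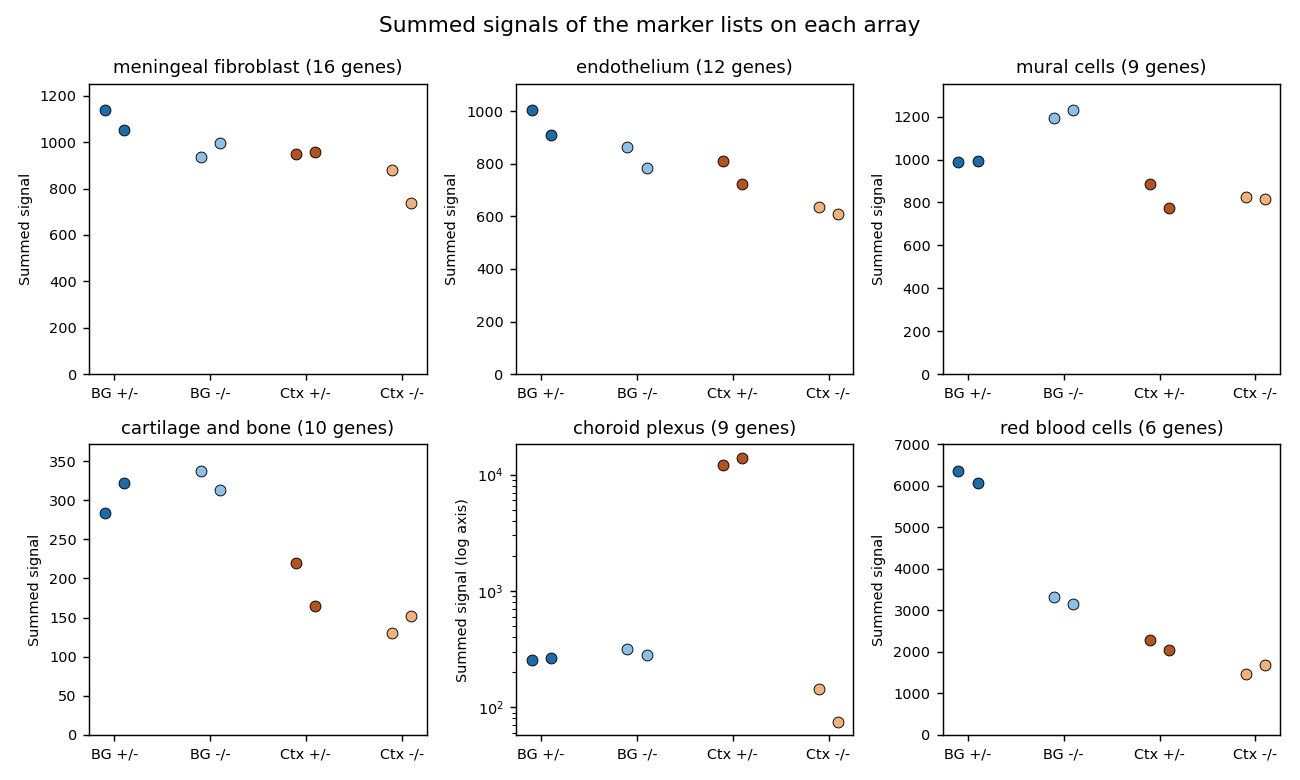
Summed signals of 6 marker lists on each array, 2 arrays a group, on linear axes from 0 except for choroid plexus, which has a log axis. Choroid plexus markers reach 12204 and 14029 in Ctx +/- and 314 or less elsewhere, and mural and cartilage or bone markers are higher in the BG arrays than in the Ctx arrays.

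Genotype moved few collagen genes past the threshold. In BG, 1 of 32 fell in -/- and none rose (limma with Benjamini-Hochberg), against 3.05% and 4.76% of all genes, and at an unadjusted p under 0.05 there were 9 of 32, against 3670 of 13627. The gene that fell was Col6a2, by 0.56 ± 0.13 on the log2 scale (limma adjusted p = 0.0466), and both BG -/- arrays lay below both BG +/- arrays. The call was lost on leaving out any 1 of the 8 arrays, with values of -0.66 to -0.46. It was also lost with the replicate number as a block (adjusted p = 0.0657), and its other probe set was at -0.38 ± 0.38. In simulated data of this design, 26.9% of probe sets changed by 1 log2 unit in BG were recovered and none of the 67 changed by 0.5. Few of the 31526 simulated probe sets were changed, whereas 7.82% of all genes were called in BG. The Benjamini-Hochberg cutoff therefore differed, and these shares need not hold for the data.

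In Ctx none of the 32 genes passed, against 0.022% of all genes higher and 0.183% lower, and 4 had an unadjusted p under 0.05, against 1172 of 13627. These were Col1a2 at -0.81 ± 0.23, Col6a2 at 0.47 ± 0.13, Col9a3 at -0.45 ± 0.16 and Col27a1 at 0.31 ± 0.13. For Col1a2 both Ctx -/- arrays were below both Ctx +/- arrays (limma adjusted p = 0.325). Averaged over regions none passed, against 1.98% of all genes higher and 1.21% lower. An unadjusted p under 0.05 was found for 7 of the 32, against 3184 of 13627. The smallest adjusted p was 0.0818, for Col9a3, whose chain belongs to the fibril-associated collagen IX, at -0.43 ± 0.12. Its signals were 68.3 and 80.5 (BG +/-), 44.8 and 59.6 (BG -/-), 73.8 and 64.3 (Ctx +/-), and 50.4 and 41.9 (Ctx -/-), and all -/- arrays lay below all +/- arrays.

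Of the main chains of meningeal and vascular matrix, none passed between the genotypes, and the intervals were wide. In BG the difference of -/- over +/- was -0.55 for Col1a1 (95% interval -1.02 to -0.08, limma adjusted p = 0.126), -0.05 for Col1a2 (-0.59 to 0.49), -0.21 for Col3a1 (-0.72 to 0.30), -0.35 for Col4a1 (-1.04 to 0.33) and -0.24 for Col4a2 (-0.74 to 0.26). In Ctx it was -0.12 for Col1a1, -0.51 for Col3a1 (-1.02 to 0.01), 0.16 for Col4a1 and -0.25 for Col4a2. The medians over the collagen genes tested were -0.12 in BG and -0.10 in Ctx, against -0.08 and -0.03 over all genes. Both arrays of a genotype lay above both of the other for 6 genes higher and 10 lower in BG -/-, against 23.8% and 37% of all genes, and for 3 and 7 (Ctx -/-), against 15.9% and 23.4%.

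**Figure D5:**
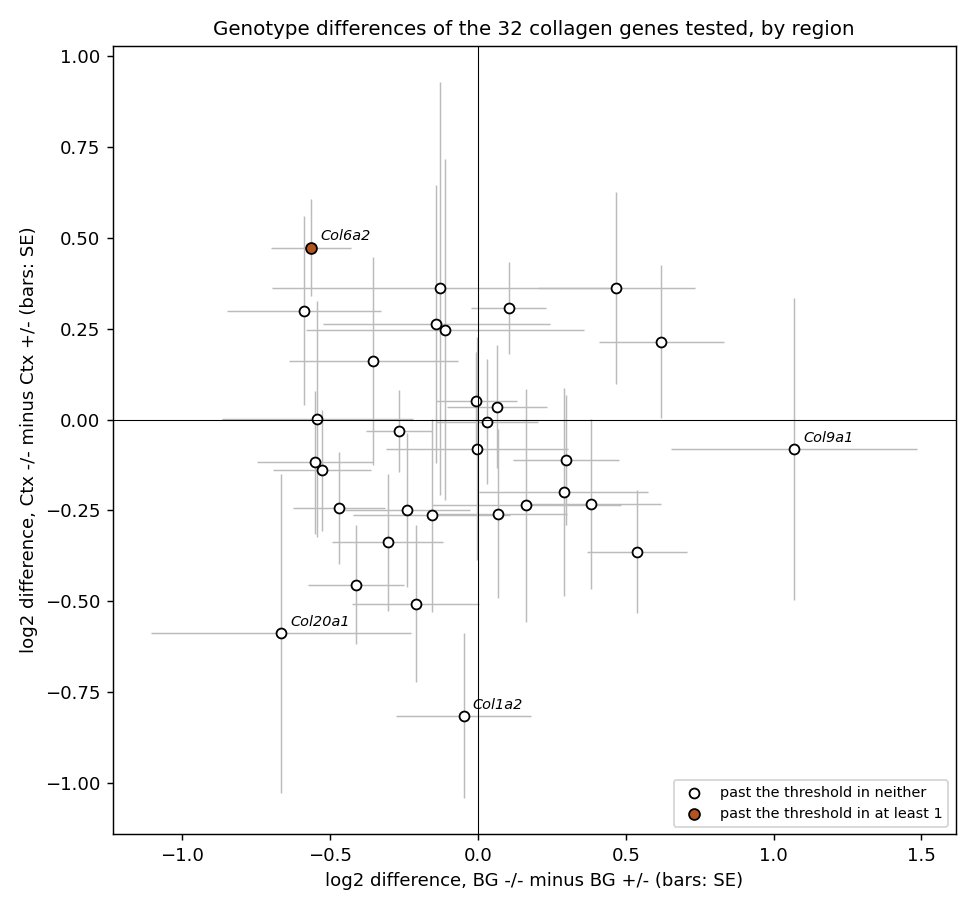
Log2 difference of -/- over +/- for the 32 collagen genes tested, in BG (horizontal axis) and Ctx (vertical axis), with SE bars. Col6a2, the gene past the threshold in BG, lies at -0.56 and 0.47, and the points do not line up along a diagonal.

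The genotype differences in the 2 regions came from separate arrays. They had the same sign for 16 of the 32 genes, against 57.7% of all genes, and correlated at 0.06 across genes, against 0.21 over all genes. The difference between the regions in the genotype effect passed for none of the 32 genes, against 0.272% of all genes more positive in BG and 0.066% more negative, and 4 genes had an unadjusted p under 0.05, against 2087 of 13627. It was -1.04 ± 0.19 for Col6a2 (limma adjusted p = 0.0726) and 0.90 ± 0.24 for Col6a3 (limma adjusted p = 0.137). The other probe set of Col6a2 was at 0.33 ± 0.53, with the sign of Col6a3, and Col6a1 was at 0.08.

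Pairs of collagen genes that are next to each other on a chromosome, by the order of coding genes in RefSeq, did not always show like values. Next to Col3a1 on chromosome 1 lies Col5a2, with averaged region differences of 0.23 and 0.30. On chromosome 10 the values were 0.28 for Col6a1 and 0.68 for Col6a2, and on chromosome 8 they were 0.30 for both Col4a1 and Col4a2. On chromosome 1, Col9a1 was at -0.21 and Col19a1 at -0.17, and on chromosome X, Col4a5 was at -0.43 and Col4a6 at 0.20. The pairs of Col4a3 with Col4a4 and of Col6a4 with Col6a5 were too dim to be tested.

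The remaining tested collagen genes did not pass in any comparison on the probe set that represents them, with the settings used throughout. They were Col5a1, Col5a3 and Col27a1 of the fibril-forming class, Col9a1, Col9a3, Col12a1, Col14a1, Col16a1, Col19a1 and Col20a1 of the fibril-associated class, the anchoring fibril gene Col7a1, the transmembrane Col13a1 and Col23a1, and Col26a1. In BG -/- over +/- they ranged from -0.67 for Col20a1 to 1.07 for Col9a1 with its BG +/- arrays at 5.29 and 32.3. Col12a1, a fibril-associated collagen of dense connective tissue, was at 64.4 and 50.7 (BG +/-) and at 40.3 and 29.8 (BG -/-), a difference of -0.53 ± 0.17 (limma adjusted p = 0.0954). This genotype difference was called with quantile normalization and with the lowest 50% of probe sets left out. The region difference of Col12a1 averaged over genotypes was called, lower in BG, with the lowest 50% left out, median centring, quantile normalization or the replicate block. Within -/- these settings other than the block also called it lower in BG. Median centring called Col13a1 lower in BG within -/-, and quantile normalization called Col27a1 lower in BG on average. With the mean of probe sets, Col9a3 was called lower in BG in both genotypes and on average. That setting called Col19a1 higher in BG within -/- and on average. Calls that arose on leaving out an array are not listed here for these genes.

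The 10 collagen genes left out as dim were Col4a3, Col4a4, Col6a4, Col6a5, Col8a1, Col8a2, Col9a2, Col10a1, Col17a1 and Col24a1. Nearest to the filter on either side lay Col6a5, left out at a mean log2 of 4.92, and Col26a1, kept at 5.06. Fitted without the filter, Col6a4 was higher in BG than in Ctx in both genotypes, at 1.23 ± 0.20 on average (limma adjusted p = 0.00803). Its signals were 37.5 and 16.9 (BG +/-), 40.6 and 21.3 (BG -/-) and 1.68 to 4.39 in Ctx. The other Col6a4 probe set, also dim, did not show this in -/-, with 2.75 and 7.62 (BG -/-) against 16.2 and 20.8 (Ctx -/-). Col6a5 passed on average at 0.51 ± 0.14 and in +/- at 0.90 ± 0.19.

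Col8a2, a short-chain collagen of basement membranes such as that of the cornea, was at 40.4 and 33.1 (Ctx +/-), 11.4 and 0.788 (Ctx -/-), 17.2 and 13.7 (BG +/-), and 6.59 and 7.26 (BG -/-). Both Ctx +/- arrays lay above all others. Without the filter its difference in Ctx -/- was -1.29 ± 0.24 and did not pass (limma adjusted p = 0.238). The choroid plexus markers, most of whose sum was Ttr, summed to 12204 and 14029 in the same 2 arrays and to 75.1 and 143 in Ctx -/-. In BG the 2 did not move together. Col8a2 was lower in both BG -/- arrays, while the markers summed to 255 and 263 (BG +/-) and 282 and 314 (BG -/-). The part of these markers was not tested.

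Genes that process collagen were called in both directions between regions. Of 26 synthesis and cross-linking genes with a probe set 22 were tested, and averaged over genotypes 3 were higher in BG and 8 higher in Ctx, with a median of -0.24, against 22.6% and 15.1% of all genes. With median centring the counts were 1 and 12, against 12.8% and 26% of all genes, and with quantile normalization 1 and 9, against 19.7% and 14.9%. Adamts3, a procollagen N-proteinase, was at 66.5 to 107 in BG and 391 to 482 in Ctx, a difference of -2.15 ± 0.10. Loxl1, of the lysyl oxidase family that cross-links collagen and elastin, was at 33.0 to 53.8 in BG and 160 to 229 in Ctx (-1.93 ± 0.15). P3h3, of the prolyl 3-hydroxylases, was lower in BG (-1.13 ± 0.16), and Pcolce, which enhances cleavage of the procollagen C-propeptide, was higher, at 32.5 to 47.3 in BG and 11.7 to 17.9 in Ctx (0.92 ± 0.12). In BG -/- 1 of the 22 fell, the prolyl 3-hydroxylase P3h1 at -0.87 ± 0.20, and none rose, against 3.05% and 4.76% of all genes. In Ctx -/- none passed, against 0.183% of all genes lower and 0.022% higher. The collagen chaperone gene Serpinh1, the partner of all procollagens in the endoplasmic reticulum, was at 333 to 393 in BG and 401 to 448 in Ctx.

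None of the 8 tested collagen receptor genes, among them the integrin and discoidin receptors, passed in any comparison. Averaged over genotypes, 1 was called higher in Ctx with median centring, against 26% of all genes. Of 7 tested genes of collagen degradation, Mmp9 was higher in BG (0.89 ± 0.19) and Mmp14, a membrane-bound collagenase, was higher in Ctx (-0.53 ± 0.12). Of all genes 22.6% and 15.1% were. In BG -/- 1 of the 7 rose, the matrix metalloproteinase inhibitor Reck at 0.88 ± 0.12, against 4.76% of all genes. Of 16 tested basement membrane partners, 2 were higher in BG, Npnt at 1.17 ± 0.15 and Smoc1 at 0.65 ± 0.11. Higher in Ctx were 3, among them the laminin chain Lamb1 at -0.64 ± 0.11 and the peroxidase Pxdn, which cross-links collagen IV, at -0.49 ± 0.09, against 22.6% and 15.1% of all genes. In BG -/- and in Ctx -/- none of the 16 passed.

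Of 18 tested partners of fibrillar matrix, 4 were higher in BG and 6 higher in Ctx, against 22.6% and 15.1% of all genes. With median centring the counts were 3 and 7, against 12.8% and 26% of all genes, and with quantile normalization 3 and 6, against 19.7% and 14.9%. The smallest p belonged to Mfap4, a microfibril-associated gene, at 2.44 to 15.9 in BG and 164 to 219 in Ctx (-3.19 ± 0.16). Dcn, the small proteoglycan decorin that binds collagen fibrils, was at 1.78 to 8.69 in BG and 30.9 to 55.6 in Ctx (-1.45 ± 0.16), opposite in direction to Col1a1 and Col1a2. Fn1, fibronectin, was at -1.10 ± 0.13 and Vcan, the proteoglycan versican, at -0.73 ± 0.09. In BG -/-, where 4.76% of all genes rose and 3.05% fell, Vcan rose from 381 and 431 to 915 and 921 (1.15 ± 0.13), while Prelp, at -1.12 ± 0.21, and Fbln1, at -0.62 ± 0.14, fell. In Ctx -/- none of the 18 passed.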

How the data were processed

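Per the file headers and values, the deposited table gives a linear intensity for each probe set and array. The authors' software is not given in the sources used here. The mean of each array with 2% trimmed at either end was 150.001, so the arrays had been scaled before deposit. After 64 controls were left out, 45037 probe sets remained. Genes were named through the platform annotation.

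Signals were analysed as log2(signal + 16). Probe sets in the lowest 30% by mean were dropped, leaving 31526. Group means were fitted in limma 3.58.1 (R 4.3.3) over all 8 arrays with lmFit and eBayes, and two-sided p-values were adjusted by Benjamini-Hochberg over all probe sets kept, threshold 0.05. Comparisons were genotype in each region, region in each genotype, the difference of the genotype effects, and both averages. Values of every array are given for each collagen gene past the threshold, and for Col1a1, Col1a2, Col3a1, Col4a1, Col4a2 and the 5 brightest. Members of partner lists are the up to 4 of smallest p. Serpinh1, Acan, Cnmd, Rgs5, Foxp1 and the collagen genes named for unadjusted p or dimness were chosen after their values were seen. The collagen genes and the lists were chosen with earlier results of these data known. The fit was tested on simulated data. Alternatives were other offsets, filters, scalings and probe set rules, an intensity trend, only the groups compared, the replicate number as a block, and leaving out each array. The scalings of the partner and marker lists were added after seeing the data. With 2 arrays a group, their number limits precision.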

Additional observations from a re-analysis of the deposited data

Results flagged for a closer look

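For 3 of the 32 collagen genes tested, both -/- arrays lay above or below both +/- arrays in BG and on the opposite side in Ctx. Of all genes tested, both -/- arrays lay above both +/- arrays for 23.8% in BG and 15.9% in Ctx. They lay below for 37% in BG and 23.4% in Ctx. The share of all genes with opposite sides in BG and Ctx was not counted. The 3 genes are therefore not shown to be more than other genes would give. The difference of the genotype effects (BG minus Ctx) was -1.04 ± 0.19 for Col6a2, 0.90 ± 0.24 for Col6a3 and -0.89 ± 0.37 for Col13a1 on the log2 scale. The test of this difference passed for none of them (limma adjusted p = 0.0726, 0.137 and 0.278). Col13a1, a transmembrane collagen of neuromuscular and other cell junctions, was at 22.2 and 24.1 (BG +/-), 3.66 and 18.5 (BG -/-), 19.4 and 12.8 (Ctx +/-), and 24.4 and 22.3 (Ctx -/-). The other probe set of Col6a2 had the opposite sign, at 0.33 ± 0.53.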

How the results depend on the processing

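Of the 24 calls of single collagen genes, none changed direction under any alternative, and 12 held in every alternative that tested them. These were the averaged region calls of Col1a2, Col2a1, Col6a2, Col11a1, Col11a2, Col22a1 and Col25a1, those in +/- of Col6a2, Col11a1, Col22a1 and Col25a1, and that in -/- of Col25a1. The averaged call of Col1a2 was not tested with the mean of probe sets. The calls of Col2a1 in +/- and Col11a1 in -/- were lost with an offset of 4, no filter, only the groups compared or the replicate block, that of Col11a2 in +/- with only the groups compared, and that of Col1a1 in +/- with no filter, an intensity trend or only the groups compared. The call of Col22a1 in -/- was lost without BG -/- replicate 3, Ctx -/- replicate 2 or Ctx -/- replicate 3 (0.86 to 0.97). For BG genotype, the 1 call became 0 with an offset of 4, no filter, an intensity trend or only the groups compared, 2 with the lowest 50% left out and 3 with quantile normalization, and leaving out an array gave 0 throughout. With the mean of all probe sets the count stayed at 1, but the gene was Col9a1, higher. With the lowest 50% left out, 1 gene passed for the difference of genotype effects (Col6a2), 1 for the averaged genotype effect (Col9a3), 5 in place of 8 for region in +/- and 3 in place of 5 for region in -/-. Region in +/- gave 4 with only the groups compared and 4 to 6 on leaving out an array, and region in -/- gave 9 with median centring and 2 to 4 on leaving out an array. Apart from fewer arrays or probe sets, the causes were not tested. With the replicate number as a block, the counts were 0 for BG genotype, 6 and 4 for region in +/- and -/-, and 12 for the averaged region difference. Deviations of same-numbered arrays correlated at -0.03 to 0.02 over the probe sets kept. These values show no pairing by number, but they cannot exclude it, since array noise can hide a shared source.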

Other observations

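Other probe sets of some collagen genes gave calls that the representing probe set did not. For Col9a3, a second probe set was at 5.92 to 10.8 in BG and at 46.7 to 90.0 in Ctx, with an averaged difference of -1.64 ± 0.15 (limma adjusted p = 0.000576), whereas the representing one was at 0.11. For Col19a1, a fibril-associated collagen gene that neurons express, another probe set was at 28.9 to 42.2 in BG, 27.5 and 8.68 (Ctx +/-) and 0.656 and 2.66 (Ctx -/-), a difference of 1.09 ± 0.19 (limma adjusted p = 0.00671), whereas the representing one was at -0.17. For Col9a1, the second probe set rose with genotype averaged over regions, at 0.84 ± 0.17 (limma adjusted p = 0.0486), with 17.2 and 7.45 (BG +/-), 33.7 and 33.4 (BG -/-), 23.9 and 14.6 (Ctx +/-), and 58.4 and 36.6 (Ctx -/-). These were noticed after their values were seen, and which transcripts each probe set detects was not examined.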
